A study of Homo sapiens with 24 samples.

Results

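The regions described here are immunoprecipitation peaks of N1-methyladenosine (m1A) whose summits lie at nucleotides 61 to 300 of a protein-coding RefSeq transcript, in HEK293T cells, a human embryonic kidney line. They were chosen by merging the 61237 peaks of 10 deposited lists into 38299 regions that overlapped by 1 nt or more. Regions were kept on NM transcripts when they were called in both replicates of at least 1 condition and had a median summit of 61 to 300 nt. This selected 3084 of 38299 regions, on 3082 transcripts of 2012 genes. They made up 66.1% of the 4669 NM regions called in both replicates of a condition. The others were 1582 regions with a median summit past 300 nt and 3 with one under 61 nt. Calling in replicates and summit position chose the regions, so both are given as description, with no test.

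Peak lists existed for 5 conditions with 2 replicates each: wild-type cells (WT), cells with an ALKBH3 knockout (KO), untreated wild-type cells of the stress experiment (UT), wild-type cells given 50 µM hydrogen peroxide for 30 min (H2O2), and wild-type cells cultured without serum for 16 h (Starve). All libraries came from polyadenylated RNA of HEK293T cells. The peak lists are of RNA precipitated with an anti-m1A antibody (IP), and unprecipitated input libraries were also made. WT and KO also had IP RNA treated with a demethylase. The labels give neither the number of knockout clones nor whether replicates came from separate cultures, so the spread between replicates may be technical.

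N1-methyladenosine carries a methyl group on the Watson-Crick face of adenosine, which hinders base pairing and can stop a reverse transcriptase or make it misincorporate. ALKBH3 removes this methyl group from RNA and from alkylated single-stranded DNA. In messenger RNA, m1A peaks have been described near transcript starts and start codons, in GC-rich and structured sequence.

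The lists differed in size, from 2175 to 11362 peaks, and library totals were not available, so depth is unknown and pileup is compared only within a list. Of 3 marker genes expressed in HEK293T, VIM had peaks in 5 lists, KRT8 in 3 and KRT18 in 1. Of 8 markers of other cell types, COL1A1 had a peak in 2 lists, and the other 7 had 0 peaks. None of the 11 markers had a region in the band. The untreated lists were assigned by their file naming, whereas the sample descriptions point them to the starved lists, and every comparison with UT rests on that assignment.

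Sequence around the annotated start is shown for 3 of the 4 leading genes with the region in all 10 lists and 1 start in the RefSeq table (GRCh38.p14), because the summits lie a short way past that start. TYMS, which also met this condition, is not shown. Each line runs from 120 bases before the start to 30 bases after it, with the 30 transcribed bases in capitals. The windows stop before the summits, which lay at 110.5, 139 and 218 nt, and whether the listed start is that of the transcript in the peak lists was not tested.
CHCHD10 (chr22:23767943-23768092, minus strand): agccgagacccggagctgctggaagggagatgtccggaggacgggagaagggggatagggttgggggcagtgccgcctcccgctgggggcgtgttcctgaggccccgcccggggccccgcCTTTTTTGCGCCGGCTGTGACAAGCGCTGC
PCBP1 (chr2:70087357-70087506, plus strand): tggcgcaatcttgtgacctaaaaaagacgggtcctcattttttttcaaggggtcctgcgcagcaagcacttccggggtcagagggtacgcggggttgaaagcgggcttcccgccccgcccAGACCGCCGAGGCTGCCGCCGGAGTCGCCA
ANP32B (chr9:97983221-97983370, plus strand): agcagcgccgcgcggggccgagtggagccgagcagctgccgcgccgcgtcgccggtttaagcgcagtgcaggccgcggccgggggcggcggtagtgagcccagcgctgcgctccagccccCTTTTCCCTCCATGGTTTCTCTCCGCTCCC

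The GC content of these windows was 71.3% for CHCHD10, 62.7% for PCBP1 and 74.7% for ANP32B. Over the 300 bases from 250 before to 50 after each start, 1665 of the 2012 genes had a sequence, and their median GC content was 68.3%. It was 66.8% for the 548 sequenced genes with a region past 300 nt and none in the band, 66.0% for the 7317 sequenced genes with any NM peak, and 58.3% over 27305 symbols. Among genes with a region in the band, those in 8 or more lists had a median of 70.0% (177 genes) and those in at most 2 lists 68.0% (247 genes). These are descriptions of the annotated start and were not tested.

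**Figure D1:**
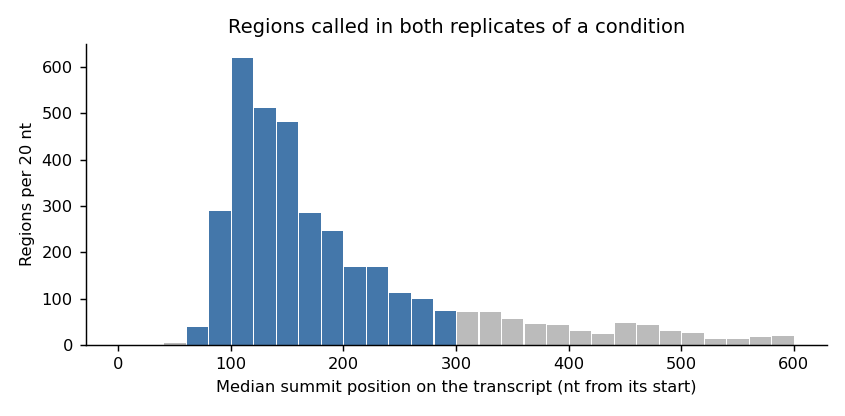
Number of NM regions called in both replicates of at least 1 condition (y axis) against the median summit position on the transcript in bins of 20 nt (x axis), with the band of 61 to 300 nt in blue. The bin of 101 to 120 nt is the highest, with 619 regions, and the first 2 bins are empty.

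The median summit of the regions was 143 nt, with a 5th percentile of 93 and a 95th of 263.5 nt. The bin of 101 to 150 nt alone held 1406 regions (45.6%), and 327 lay at 61 to 100 nt. The histogram of summit positions falls off on both sides of this peak. Peaks were at least 100 nt long in every list, and 235 of 56832 NM peaks had a summit under 61 nt. Just inside the lower limit lay RAP1A, a small GTPase (64 nt), F8A1 (65 nt) and UBQLN4 (65.5 nt). The 3 regions outside it lay on SMARCC2, a chromatin remodelling subunit (52 nt), BSN (58.5 nt) and CLUH (60 nt). At the upper limit TK1, TYRO3 and GYPC had median summits of 300 nt, and ANP32E (301 nt), MXI1 (301.5 nt) and GGNBP2 (302 nt) fell outside.

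The median number of lists was 4 in each of the 5 position bins. KO replicates both held 37.3% of the regions at 61 to 100 nt but 57.5% of those at 101 to 150 nt and 60.6% of those at 151 to 200 nt. UT replicates both held 41.9%, 31.9% and 26.8% of the same bins. The WT share went from 29.7% at 61 to 100 nt to 19.3% at 251 to 300 nt.

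Most regions were called in a minority of lists. In all 10 lists there were 73 regions of 53 genes, 329 regions lay in 8 or more lists, and 1650 lay in 4 or fewer. The median was 4 lists, against 3 for regions past 300 nt. Both replicates held 776 of the 3084 regions in WT, 1708 in KO, 937 in UT, 598 in H2O2 and 1015 in Starve. By single list, WT held 28.9% and 51.9% of the band, against 12.3% and 21.6% of the regions past 300 nt. For KO this was 62.2% and 62%, against 34.7% and 34.2%, and for H2O2 40.4% and 32.7%, against 28.9% and 23.1%. The shares lay closer in UT (45.8% and 43.3%, against 40.3% and 41.2%) and Starve (52.6% and 47.2%, against 49.2% and 47.6%). Of the regions called in either replicate of a condition, both held 80.6% in KO, 51.8% in UT, 49.2% in Starve, 45.2% in WT and 36.1% in H2O2. For regions past 300 nt these shares were 82.0% in KO, 65.5% in UT, 64.6% in Starve, 40.7% in WT and 39.0% in H2O2. For 1936 regions only 1 condition had a call in both replicates. The WT and KO lists shared 2282 regions with the lists of the stress experiment, 314 regions lay in WT or KO lists only, and 488 in UT, H2O2 or Starve lists only.

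Regions in more lists also had higher pileup percentiles. The pileup percentile of a region among the NM peaks of its lists, taken as the median over lists, had a median of 46.9 for regions in 2 lists, 67.1 for those in 6 and 95.8 for those in 10. Calling itself depends on peak height, so this is description only. The median percentile of band peaks ran from 57.9 to 83.1 between lists, so the value also depends on which lists held a region. Of the genes, 704 had 2 or more regions in the band and at most 6, with only 2 transcripts holding 2 regions each. Transcripts of 1 gene share reads. A region past 300 nt was also present in 230 of the 2012 genes.

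**Figure D2:**
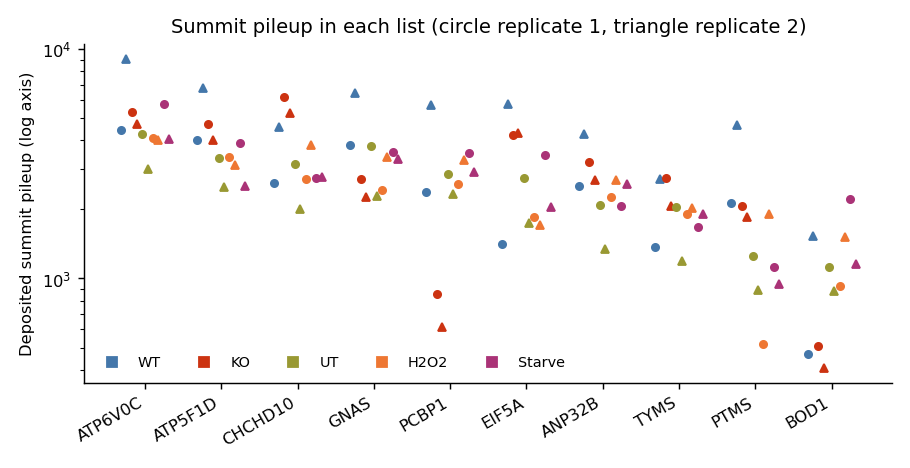
Deposited summit pileup (y axis, log scale) of the 10 genes in all lists with the highest median pileup percentile (x axis), 1 symbol per list coloured by condition. ATP6V0C ranges from 2998 to 9013, and PCBP1 from 613 to 5682; depth is unknown, so symbols of different lists show no change in level.

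The deposited pileups of the 10 genes that led this order are given list by list, and values of different lists are not ranked against each other. ATP6V0C, a proton channel subunit of the vacuolar ATPase, had summit pileups of 4452 and 9013 in WT, 5323 and 4705 in KO, 4268 and 2998 in UT, 4082 and 4002 in H2O2, and 5749 and 4038 in Starve. Its summit lay at 179 to 199 nt of NM_001694 in the 10 lists. ATP5F1D, a subunit of the mitochondrial ATP synthase, had 4001 and 6753 in WT, 4701 and 4005 in KO, 3340 and 2503 in UT, 3388 and 3115 in H2O2, and 3884 and 2539 in Starve. Its summits fell within 3 nt of each other, at 136 to 139 nt of NM_001001975, which was the narrowest range among regions in 8 or more lists. Both genes lay above the 99th percentile of pileup in each of the 10 lists.

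CHCHD10, a protein of the mitochondrial intermembrane space, had 2596 and 4581 in WT, 6169 and 5272 in KO, 3162 and 2004 in UT, 2716 and 3810 in H2O2, and 2737 and 2767 in Starve. GNAS, which encodes the stimulatory G protein alpha subunit, had 3802 and 6461 in WT, 2708 and 2275 in KO, 3778 and 2286 in UT, 2425 and 3388 in H2O2, and 3562 and 3312 in Starve. Its region on NM_080426 held a further summit at 373 nt in 1 list, whereas the highest summits lay at 112 to 133 nt.

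PCBP1, an RNA-binding protein of poly(C) sequence, had pileups of 2385 and 5682 in WT, 856 and 613 in KO, 2854 and 2339 in UT, 2585 and 3289 in H2O2, and 3510 and 2900 in Starve. The pileup percentile of PCBP1 among the NM peaks of a list was 95.1 and 92.7 for the KO lists, against 99.0 to 99.9 for the other 8. The lists differ in length, so no change is read from these ranks. The authors' deposited fold enrichment over local background was 2.70 and 1.90 in the KO lists and 7.13 to 15.8 in the other 8 lists. In the KO lists the summit lay at 178 and 183 nt, and in the others at 127 to 174 nt. Input levels were not analysed here, and the cause of the lower deposited fold in the KO lists was not tested.

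EIF5A, a translation elongation factor that carries hypusine, had 1416 and 5782 in WT, 4203 and 4323 in KO, 2754 and 1741 in UT, 1857 and 1706 in H2O2, and 3464 and 2039 in Starve. ANP32B, a histone chaperone, ranged from 1341 to 4251 over the 10 lists with summits at 211 to 241 nt. TYMS, the thymidylate synthase, ranged from 1187 to 2742, with summits at 155 to 163 nt in KO and in 1 H2O2 list and at 113 to 125 nt in the other lists. PTMS, a small acidic nuclear protein, ranged from 519 to 4661, and BOD1, a regulator of chromosome biorientation, from 409 to 2213. The PTMS value of 519, in the first H2O2 list, had its summit at 294 nt. In the other lists the PTMS summits lay at 73 to 101 nt, with pileups of 891 to 4661.

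Height and length were compared within each list between regions in the band and the other replicated NM regions. Peaks in the band had a higher median pileup than peaks past 300 nt in 10 of 10 lists. In the first WT list the medians were 98 and 81, in the first KO list 144.5 and 140, in the first UT list 89 and 65, and in the second H2O2 list 227 and 200. The mean difference over lists was 0.26 on the log2 scale (SD 0.18, n = 10 lists, range 0.04 to 0.50), or 1.20-fold (exact two-sided sign-flip permutation, p = 0.00195, the smallest possible; Benjamini-Hochberg adjusted over 4 tests, p = 0.00781). Replicate lists of a condition, and isoforms within a list, are not independent. The p-value takes the 10 lists as independent, so it is not a measure over separate experiments.

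Peak length differed in no single direction between the same groups. The log2 difference in median length was 0.02 (SD 0.12, n = 10 lists), higher in 5 and lower in 5 (exact permutation p = 0.672, adjusted p = 0.688). It was -0.04 to -0.19 in the WT and KO lists. In the stress experiment it was -0.06 in the first H2O2 list and 0.05 to 0.20 in the others. Median lengths of either group there were 100 to 118 nt, near the minimum peak length of 100 nt. This split by experiment was not tested. Against the 3 regions under 61 nt, which had peaks in 5 lists, pileup was higher in 5 of 5 lists by 1.14 on the log2 scale (SD 0.57; exact permutation p = 0.0625, the smallest possible, adjusted p = 0.125). The length difference there was 0.03 (SD 0.16, n = 5 lists; exact permutation p = 0.688, adjusted p = 0.688). With 3 regions this comparison describes SMARCC2, BSN and CLUH more than a class.

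Summits of the regions were placed close together by replicates. The median distance between the summits of 2 replicates was 8 nt in KO, 12 nt in WT, 16 nt in UT, 17.5 nt in H2O2 and 20 nt in Starve. For regions past 300 nt the medians were 11, 17, 32, 33 and 42 nt in the same order, longer in all 5 conditions. A distance of 25 nt or less was found for 84.3% of the 1708 regions of KO and 55.0% of the 1015 regions of Starve. The band itself limits how far a summit can lie towards the 5′ end, so the distances are given without a test.

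**Figure D3:**
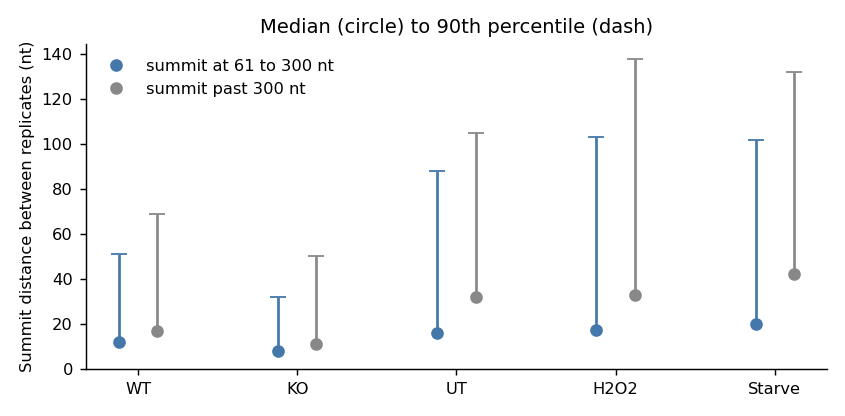
Distance in nt between the summits of the 2 replicates of a condition (y axis), from the median (circle) to the 90th percentile (dash), for regions with a median summit at 61 to 300 nt (blue) and past 300 nt (grey), by condition (x axis). The medians in the band run from 8 nt in KO to 20 nt in Starve, each below that of the regions past 300 nt.

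Across all lists that held a region, the summits spanned a median of 41 nt, and 1807 regions (58.6%) spanned 50 nt or less, against 49.5% of the regions past 300 nt. Besides ATP5F1D, the narrowest ranges among regions in 8 or more lists belonged to YBX1, an RNA- and DNA-binding cold shock protein (145 to 151 nt), and the linker histone H1-10 (251 to 261 nt). The widest belonged to CPSF6, a factor of 3′ end cleavage, with summits from 107 to 648 nt, UBALD2 (229 to 648 nt), and HNRNPD, an AU-rich element binding protein (79 to 481 nt). For UBALD2 the summit at 648 nt came from 1 H2O2 list and the other 9 lay at 229 to 298 nt. For CPSF6 the 8 summits were scattered, at 151 and 154 nt in KO, 239 and 418 nt in UT, 386 and 483 nt in H2O2, and 648 and 107 nt in Starve. The merged regions of CPSF6 and HNRNPD thus span summits that lie far apart.

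KO was compared with WT by the regions called in each, which does not show the sites that ALKBH3 acts on. Of the 2596 regions with a peak in a WT or KO list, 752 (29%), on 528 genes, were called in both KO replicates and in neither WT replicate. The reverse held for 222 regions (8.55%) on 155 genes. Over all 3354 replicated NM regions with a peak in these lists the shares were 32.3% and 8.38%, so the share called in KO alone was near that background, and for regions past 300 nt it was 43.8%. A further 407 regions were in all 4 lists. Absence from a list means not called, and the first WT list held 892 of the regions against 1601 in the second and 1917 and 1911 in the KO lists. Leaving out WT replicate 1, so that 1 WT list sufficed, turned the order, with 822 regions in KO alone and 1034 in WT alone. Without WT replicate 2 the counts were 1229 and 467, and without KO replicate 1 or 2 the KO count was 1202 or 1157. No NM peak of the gene was called in WT for 475 of the 528 KO-only genes, and none in KO for 121 of the 155 WT-only genes.

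The KO-only regions with the highest deposited fold lay on LUC7L, a splicing factor, NDUFB6, a complex I subunit, TMEM70, an assembly factor of ATP synthase, and LRPAP1, a chaperone of lipoprotein receptors. LUC7L had pileups of 475 and 508 in KO, a peak of 56 in 1 H2O2 list and one of 91 in 1 Starve list. NDUFB6 had 400 and 457 in KO and was called in no other list. TMEM70 had 357 and 325 in KO and was also called in both UT lists (82 and 53), so untreated wild-type cells of the stress experiment held this region although the WT lists did not. LRPAP1 had 698 and 733 in KO, and 281 in 1 H2O2 list.

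The leading WT-only regions lay on WSB2, an ubiquitin ligase adaptor, PHF19, a Polycomb-associated protein, OBSL1 and the calcineurin catalytic subunit PPP3CB. Each of these 4 was also called in 5 or 6 of the 6 lists of the stress experiment. WSB2 had pileups of 231 and 481 in WT, and 248 and 86 in UT. PHF19 had 204 and 366 in WT, and 145 and 211 in UT. PPP3CB had 154 and 354 in WT, and 120 and 112 in UT, on NM_001289969. On other transcripts of PPP3CB, such as NM_001142353, a region at nt 36 to 232 was called in all 10 lists, KO included. The missing KO call thus holds for the transcript and not for the gene. OBSL1 had 466 and 665 in WT, and 156 in the second UT list.

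**Figure D4:**
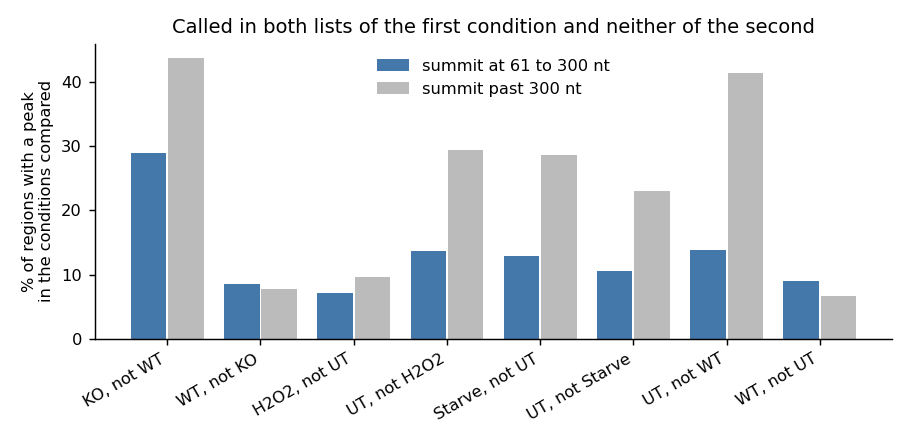
Share of regions (y axis, percent of regions with a peak in either condition) called in both lists of the first named condition and neither list of the second (x axis), for median summits at 61 to 300 nt (blue) and past 300 nt (grey). In the band 29% were called in KO and not WT, and 13.9% in UT and not WT, 2 groups of untreated wild-type cells.

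Both UT and WT are untreated wild-type cells by their labels, and 326 of 2350 regions (13.9%) were called in both UT replicates but not in WT, with 211 (8.98%) the other way. Over all replicated NM regions these shares were 21.7% and 8.3%. The stress comparisons were of that size or smaller. Of 2372 regions, 167 (7.04%) were called in both H2O2 replicates but not in UT, and 322 (13.6%) the other way, against 7.82% and 18.4% over all replicated NM regions. Of 2541 regions, 329 (12.9%) were called in both Starve replicates but not in UT, and 268 (10.5%) the other way, against 18.3% and 14.8%. With 2 lists against 2, the smallest two-sided exact p for 1 region is 0.333, and no region was tested. These comparisons share the UT lists. The counts depend on single lists, since a condition left with 1 list qualifies on it alone. For H2O2 against UT they were 254 and 1557 without UT replicate 1, 806 and 560 without H2O2 replicate 1, 1172 H2O2-only without H2O2 replicate 2, and 1554 UT-only without UT replicate 2. For Starve against UT they were 509 and 1306 without UT replicate 1, 1208 and 490 without Starve replicate 1, 1803 Starve-only without Starve replicate 2, and 1305 UT-only without UT replicate 2.

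The regions called with H2O2 and not in UT that had the highest fold lay on IPO13, an importin (pileups of 175 and 157), ZNF839 (117 and 221), SCLY, the selenocysteine lyase (83 and 100), and PGAP1, an enzyme of GPI anchor remodelling (83 and 279). ZNF839 and PGAP1 were called in no other list. SCLY also had a peak of 68 in the second WT list and one of 38 in the first Starve list. IPO13 had one of 24 in the first Starve list. Those called in UT and not with H2O2 lay on PQBP1 (109 and 104), the helicase DDX42 (105 and 74), NDUFA8, a complex I subunit (85 and 86), and CLK2, a kinase of splicing factors (112 and 73). DDX42 and NDUFA8 were both also called in the 2 WT lists.

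With starvation and not in UT, the leading regions lay on NFATC2IP (pileups of 100 and 137), MRPL10 of the mitochondrial ribosome (92 and 126), SKP2, an F-box protein of the cell cycle (107 and 86), and BAX, a pro-apoptotic protein (77 and 198). MRPL10 was called in 8 lists, all but those of UT, so its call does not single out starvation. NFATC2IP was also called in both WT lists. The BAX region on NM_138764 was called in the Starve lists alone. In UT and not with starvation, they lay on CLK2 (112 and 73), DNAJB11, a chaperone of the endoplasmic reticulum (127 and 69), AGTRAP (92 and 63) and PHF20L1 (87 and 61).

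Across families picked by symbol, the share of genes with a region in the band was set beside 22.8%, the share among all 8821 genes with an NM peak (2012 genes). Translation factors had a region in 23 of 53 genes (43.4%), oxidative phosphorylation subunits in 32 of 77 (41.6%), sterol synthesis genes in 7 of 18 (38.9%) and proteasome subunits in 14 of 40 (35%). Cytosolic ribosomal proteins had one in 18 of 54 genes (33.3%), splicing factors and hnRNP proteins in 21 of 63 (33.3%), RAB GTPases in 12 of 40 (30.0%) and chromatin enzymes in 17 of 58 (29.3%). Mitochondrial ribosomal proteins (15 of 63, 23.8%), UBE2 and USP enzymes (15 of 64, 23.4%), cell cycle and replication genes (21 of 90, 23.3%), RNA methylation genes (3 of 13, 23.1%) and chaperones (13 of 57, 22.8%) were close to the background. Solute carriers (32 of 163, 19.6%), aminoacyl-tRNA synthetases (5 of 30, 16.7%), zinc finger proteins (18 of 179, 10.1%) and DDX and DHX helicases (4 of 40, 10.0%) were lower. Transcript abundance was not analysed here, and the shares were not tested.

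Over all 2012 genes, 1124 had a region in both KO lists and 523 in both WT lists. A region called in KO and not WT was held by 528 genes, and the other way by 155. Such a gene can have another region called in the other genotype, and the same holds for the family counts below. In translation, EIF5A was called in 10 lists, EIF1B in 8 and EIF1, which selects start codons, in 7. EIF1 had pileups of 2491 and 4177 in WT and 6380 and 5612 in KO, and was not called in UT. RPS20, a small subunit protein, was called in 9 lists with pileups of 548 and 1692 in WT, 3673 and 4051 in KO, 544 and 439 in UT, and 565 to 688 in the H2O2 and Starve lists that held it. RPS2 was called in 8 lists with pileups of 2825 to 7467, at deposited folds of 1.69 to 2.29, and RPS29 in 7 lists with pileups of 45 to 257. MRPS26 was called in 10 lists with pileups of 384 to 1317, and MRPL41 in 8 with 138 to 378. Of 18 cytosolic ribosomal protein genes, 13 had a region in both KO lists and 1 in both WT lists, and 9 had a region called in KO and not in WT.

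In oxidative phosphorylation, 23 of 32 genes had a region in both KO lists and 6 in both WT lists. In 14 genes a region was called in KO and not in WT, and in 0 genes the other way. COX6A1, a subunit of cytochrome oxidase, was called in 9 lists with pileups of 316 to 1754, and ATP5MC3, a rotor subunit of ATP synthase, in 8 with 140 to 799. Of 13 chaperone genes, 10 had a region in both KO lists and 0 in both WT lists. TCP1, a subunit of the CCT chaperonin, had pileups of 499 and 617 in KO and no peak in WT, and was called in 7 lists. Among sterol genes INSIG1 had 379 and 342 in KO and 294 and 222 in UT, with no WT peak, and SQLE, the squalene epoxidase, had a peak of 252 in the second WT list and none in KO. These WT counts share the smaller first WT list. Over all 2012 genes the lean was also to KO, with 1124 in both KO lists and 523 in both WT lists. The families were not tested against it. Some families leaned less: translation factors had 13 genes in both KO lists and 9 in both WT lists. Of the translation factors, 3 had a region called in KO and not in WT and 3 had one the other way. For UBE2 and USP enzymes the counts of genes with such one-sided regions were 2 and 1.

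Among splicing proteins 8 of 21 genes had a region in 8 or more lists, beside 220 of all 2012 genes (10.9%); the difference was not tested. SRSF1 had pileups of 290 to 942 with summits at 184 to 218 nt over 10 lists, SRSF7 had 187 to 660 at 199 to 231 nt, and HNRNPL had 214 to 907 with summits from 134 to 518 nt. Of the helicases, DDX5 was called in all 6 WT, KO and UT lists with pileups of 141 to 390 and in no H2O2 or Starve list. The zinc finger genes in most lists were ZNF580 and ZNF207 (9 each) and ZNF768 (8). Of the carriers, SLC25A1, the mitochondrial citrate carrier, was called in 10 lists with pileups of 312 to 995, and SLC6A8, the creatine transporter, and SLC44A2 in 9 each.

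Further genes in most lists of their family were HDAC5 in 9 lists and HDAC3 in 8, both histone deacetylases, RAB6B and the D-type cyclin CCND3 in 9, and the transcription factor E2F1 in 8. The ubiquitin conjugating enzymes UBE2R2 and UBE2A were called in 9 and 8 lists. HDAC3 had summits of 65 to 83 nt, close to the lower limit of the band. Of the genes that write or read RNA methylation, YTHDF1, a reader of N6-methyladenosine, and WTAP, a subunit of its methyltransferase, were called in 4 lists each, and TRMT10C, a mitochondrial tRNA methyltransferase, in 2. YTHDF1 had pileups of 78 and 159 in WT and none in KO, and WTAP had 90 and 106 in KO and none in WT.

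Treated and IP coverage were compared in 10-nt windows that advance by 5 nt, which the authors had scaled to sum to about 200 over each region, so a lower value in 1 window is balanced elsewhere in the region. The 2 files of a genotype held the same treated library: the ratio of their treated values was within 0.1% of its region's median in 100% of 10871 windows in WT and of 24531 in KO, against 2.86% and 3.39% of windows for IP. Each genotype therefore had 1 treated library and 2 IP libraries, and the treated value was counted once. The lone treated library was assumed to vary like the IP libraries. The design had counted 2 treated samples, and it was replaced after its calls had been seen, because the values were the same.

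With 1 treated library against 2 IP libraries, 0 of 9662 windows of the band in 310 regions passed in WT (limma, adjusted p under 0.05), and 1929 had an unadjusted p under 0.05. In KO 0 of 19284 windows in 635 regions passed, and 3248 had an unadjusted p under 0.05. The background over all windows was 0% of 11289 in WT and 0% of 24707 in KO, with smallest adjusted p of 0.0961 and 0.171 by limma. Counting the treated columns as 2 samples gave 3009 and 4432 windows of the band, which rest on the same library entered as 2 samples.

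**Figure D5:**
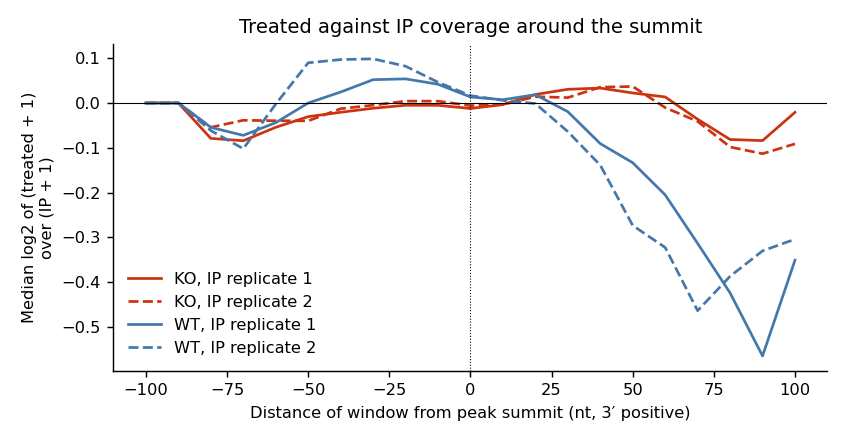
Median over regions of log2(treated + 1) minus log2(IP + 1), where both are scaled coverage (y axis) against the distance of the window from the peak summit in nt, positive towards the 3′ end (x axis), with 1 line per genotype and IP replicate. The 2 WT lines fall below -0.3 at 70 to 100 nt downstream while the 2 KO lines stay between -0.11 and 0.04. The genotypes rest on different regions, and fewer regions reach the far distances.

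The shape of treated coverage around the summit differed in description between the genotypes. The genotypes were profiled over different regions, 636 and 641 at the summit in WT and 1546 and 1549 in KO. At 70 nt downstream of the summit, 323 and 427 regions remained in WT and 820 and 791 in KO. The median log2 ratio (treated over IP) there was -0.31 and -0.46 in WT and -0.04 and -0.04 in KO, for the 2 IP libraries. At 90 nt it was -0.56 and -0.33 in WT, over 173 and 255 regions, and -0.08 and -0.11 in KO. At 30 nt upstream it was 0.05 and 0.10 in WT and -0.01 and -0.005 in KO. Farther upstream, at 70 nt, it was -0.07 and -0.10 in WT, so the positive WT values were limited to the stretch near the summit. Treated coverage was 0 in 15.9% and 16.9% of the windows with IP coverage in WT and in 5.26% and 5.28% in KO. Over the 310 regions with windows in all 4 files, these shares were 12.2% and 12.2% in WT and 2.81% and 2.98% in KO. The part of the windows with 0 treated coverage in the profile was not tested.

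The treated centres of single regions lay to either side of the IP centres. Of 633 WT regions, 330 had treated centres of coverage displaced to the same side of both IP centres by a mean larger than the gap between the 2 IP shifts, 195 towards the 5′ end and 135 towards the 3′ end. In KO this held for 997 of 1544 regions, 470 and 527. The median gap between the 2 IP shifts was 9.20 nt in WT and 3.98 nt in KO. The share expected if the treated library varied like an IP library was not computed, so these counts do not show a shift. The median shift of the treated centre from the IP centre, over the 310 regions with windows in all 4 files, was -1.39 and -4.33 nt in WT and -0.16 and -0.48 nt in KO, where negative values lie towards the 5′ end. The share of regions shifted towards the 5′ end was 54.8% and 65.2% in WT and 50.6% and 51.0% in KO. Both WT shifts lay below both KO shifts in 121 of the 310 regions and above both in 72. Single transcripts went either way. On NM_080426 of GNAS the shift was 37.5 and 22.2 nt in WT and 9.18 and 6.81 nt in KO. On its transcripts NM_000516, NM_001077488 and NM_001077489 the first WT shift also lay above both KO shifts. The second WT shift there was 4.77, 4.21 and 4.91 nt, below both KO shifts, so the larger WT shift does not hold for the gene. On NM_001001975 of ATP5F1D the shift was -13.3 and -10.2 nt in WT and 1.28 and 0.064 nt in KO. With 1 treated library per genotype, the genotype and the library cannot be told apart.

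By the fit that assumes the lone treated library of each genotype to vary like the IP libraries, the difference of KO from WT in treated against IP coverage passed in 39 of 2378 windows of the band (1.64%; limma, adjusted p under 0.05), 33 higher and 6 lower in KO, in 11 of 83 regions. The background was 1.56% of 2508 windows. The 39 windows had log2 differences of 1.09 to 3.44 in size, with limma adjusted p of 0.0442 to 0.0484, so all lay just under the threshold. The count was 77 with a pseudocount of 0.5, 0 with a pseudocount of 5, 2 without the filter on low coverage, 0 without any 1 of the 4 IP libraries (WT or KO replicate 1 or 2), and 0 of 8801 windows matched to the nearest 5 nt. The spread of treated coverage was not measured in either genotype, so these calls do not show a difference between KO and WT. Treated coverage in WT was 0 in 24 of the 33 windows higher in KO.

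The 11 regions lay on 9 genes, and those described here were named after their values were seen; the same limit holds for each p given. SLIRP, an RNA-binding protein of mitochondria, had 7 and 6 windows on 2 transcripts that share reads. At nt 176 to 185 of NM_001267863 its treated coverage was 0 in WT against IP values of 4.78 and 4.14, and 3.84 in KO against 3.05 and 2.90 (log2 difference 2.73, SE 0.28; limma adjusted p = 0.0442). NMT1, an N-myristoyltransferase, had 5 such windows, STK40 4 and IGSF8 3. NSMF had 3 and 1 on 2 transcripts, and PSMB4, a proteasome subunit, had 1.

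CCN1, a matricellular protein, and RANGRF went the other way, with 3 windows each. In CCN1 at nt 176 to 185 treated coverage was 13.8 in WT against IP values of 3.26 and 2.15, and 1.94 in KO against 6.43 and 6.15 (log2 difference -3.32, SE 0.34; limma adjusted p = 0.0442).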

How the data were processed

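The regions, gene families and rules for named genes were chosen with earlier results of these data known. Per the submitters' processing notes, Trim Galore, HISAT, MACS2 and the build hg19 were used; versions and the control of each list are not given in the sources used here. Peaks were called per replicate by the authors on RefSeq transcripts, per the file headers. The deposited columns used were the summit pileup (a coverage signal), the fold enrichment ratio over local background, and the −log10 q-value, all the authors' own values. The 4 windowed files hold a coverage signal that the authors scaled to about 200 per region; they give no depth. Coordinates are transcript positions.

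Peaks were merged at 1 nt of overlap; where a list had 2 peaks in a region (149 of 14401 pairs) the higher was used. Symbols came from RefSeq GRCh38.p14 (3067 of 3084 regions). Windows with identical starts and a mean coverage of 1 or more were fitted with limma 3.58.1 (R 4.3.3) on log2(coverage + 1) with a variance trend and Benjamini-Hochberg adjustment over all windows. The duplicated treated column was counted once. Band differences within lists were tested by exact sign-flip permutation (scipy 1.17.1). Both tests were checked on simulated data. For the window fit, simulated treated and IP libraries had the same spread and windows were drawn independently. The assumption that the treated library varies like the IP libraries was thus not checked. Named genes were 10 in most lists, 4 per one-sided comparison by the lower fold, up to 3 per family, 3 with the widest and 3 with the narrowest summits, and those at the limits of the band; genes by significant window differences within a genotype were none. Alternatives covered peak fold (4), −log10 q (5), overlap (50 nt), 1 transcript per gene, pseudocount, filter, trend, replicate block and left-out lists. Results for some items are not reported here.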

Additional observations from a re-analysis of the deposited data

Results flagged for a closer look

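In 39 windows of the band the treated against IP difference passed between KO and WT (limma, adjusted p under 0.05), in a fit with 1 treated library per genotype whose spread was assumed and not measured, so a difference between the genotypes is not shown. They lay in 11 of 83 regions, 33 higher and 6 lower in KO, and 0 passed on leaving out any 1 of the 4 IP libraries, with a pseudocount of 5, or with windows matched to the nearest 5 nt.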

How the results depend on the processing

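Depth is unknown, and 2 lists per condition and 1 treated library per genotype limit all comparisons. The number of regions was 1623 with a fold of 4 or more and 2005 with 1 transcript per gene, and 3304 to 4825 on leaving out 1 list (4825 without Starve replicate 2), which lets the condition qualify on its remaining list. With a fold of 4 or more the one-sided counts were 442 (KO, not WT), 106 (H2O2, not UT), 134 (UT, not H2O2), 206 (Starve, not UT) and 120 (UT, not Starve). With 1 transcript per gene they were 146 (WT, not KO), 111 (H2O2, not UT), 217 (Starve, not UT) and 164 (UT, not Starve). Leaving out 1 list in turn gave 750 to 1229 (KO, not WT), 222 to 1034 (WT, not KO), 166 to 1172 (H2O2, not UT), 319 to 1557 (UT, not H2O2), 326 to 1803 (Starve, not UT) and 265 to 1306 (UT, not Starve). The other peak settings, among them overlap of 50 nt and −log10 q of 5, stayed within 1.5 times.

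Height against regions past 300 nt kept its direction and call in all 14 alternatives, from 0.23 to 0.28 on leaving out 1 list. With all peaks of a band, height and length against peaks under 61 nt were 0.49 and 0.11 (exact permutation, adjusted p = 0.0104 for both). Length against those peaks was -0.069 with a fold of 4 or more, and length against regions past 300 nt was -0.026 with means and -0.00401 to 0.039 on leaving out 1 list, -0.00401 without Starve replicate 1; these had no call. Leaving out 1 list gave 0.95 to 1.32 for height and 0.0006 to 0.10 for length against peaks under 61 nt.

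With the treated columns as 2 samples, as designed, 3009 (WT), 4432 (KO) and 588 (KO against WT) windows of the band passed, and with the replicate block 2349, 4620 and 532 (limma). The numbers could not be checked as a pairing, since the treated columns of a genotype are 1 library. For KO against WT the count was 77 with a pseudocount of 0.5, 0 with 5, 2 without the filter, 0 matched to the nearest 5 nt, and 0 to 0 on leaving out 1 IP library. Matching to the nearest 5 nt, chosen after seeing the data as was counting treated once, gave 3 windows in WT. Leaving out an IP library within 1 genotype left no residual degrees of freedom and was not run. The cause of these changes was not tested.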
